A study of Caenorhabditis elegans with 19 samples.

Results

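Transcripts of the proteasome subunit genes were followed in dissected gonads of the nematode Caenorhabditis elegans in which a ribosome production factor was depleted. Members were all protein-coding genes whose symbol starts with pas-, pbs-, rpt- or rpn-, which gave 33 genes of the 19985 protein-coding genes in the count tables. They comprise 7 alpha subunits (pas-), 7 beta subunits (pbs-), 6 ATPases (rpt-) and 13 other regulatory subunits (rpn-).

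The 26S proteasome degrades proteins that carry ubiquitin chains. Its core is a barrel of stacked rings: alpha subunits form the gate, and beta subunits, of which PBS-1, PBS-2 and PBS-5 cut peptide bonds, form the chamber. The regulatory particle at the end of the barrel binds ubiquitin chains, removes them and uses its ring of ATPases to unfold and feed in the substrate. In worms and mammals, transcription of the subunit genes is known to be raised together when proteasome activity is impaired, in worms through the SKN-1A transcription factor.

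The data were RNA-seq libraries of total RNA from gonads of young adult hermaphrodites, with 20 gonads per replicate. In each of 3 strains a protein was marked with a degron, a tag that lets the plant hormone auxin trigger its destruction: the RNA polymerase I subunit RPOA-2 (strain ESC332), the ribosome assembly chaperone GRWD-1 (ESC422) or the ribosome assembly chaperone TSR-2 (ESC420). Late L4 larvae spent 18 h at 20 °C on plates containing auxin at 1 mM or an equal volume of its solvent, ethanol. Groups held 4 libraries on ethanol and 4 on auxin for RPOA-2, 3 and 3 for GRWD-1, and 2 and 3 for TSR-2. Where values of all strains follow each other below, they stand in this order. Control libraries carry the same degron alleles, and an auxin-treated strain without a degron was not analysed here, so the effect of auxin itself cannot be told apart from that of depletion. The auxin receptor that the strains carry, its promoter and the number of independent lines are not given in the sources used here. Destruction through a degron in itself runs through ubiquitin and the proteasome.

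Libraries of the RPOA-2 and GRWD-1 strains held 1582308 to 8526501 counts on protein-coding genes, so that 3 counts corresponded to 0.352 to 1.90 CPM (counts relative to the TMM-scaled library size). The TSR-2 libraries, taken from a table of fractional counts, held 1903452 to 3950086 protein-coding counts, except for auxin replicate 3. That library held 43578 protein-coding counts, of which 341 fell on members, and 3 counts there equal 68.8 CPM. In it 18 of 33 members had fewer than 10 counts, and TSR-2 log2 changes of named members are therefore given also without it. Germline markers summed to 4146 to 7210 CPM over all groups, and the sperm markers to at most 33.0 CPM. All 33 members passed the filter on low counts in all 3 strains. Nothing in the labels says whether replicates come from separate cultures, so p-values measure the spread between these samples, which may be technical.

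Member genes were all transcribed in these gonads, and together they took 0.639 to 0.781% of protein-coding counts in the RPOA-2 and GRWD-1 libraries. Compared per kilobase of exon, the median member stood at 143 CPM per kb in the RPOA-2 ethanol libraries, 142.2 in the GRWD-1 and 138 in the TSR-2 ethanol libraries. The most abundant member in all 6 groups was rpt-2, an ATPase of the regulatory ring, at 418 ± 59.9 CPM per kb (SD, n = 4) in RPOA-2 ethanol gonads. It was followed by the alpha subunit pas-5 at 405 ± 62.3 CPM per kb, and these 2 levels differed by less than their spread. The deubiquitinase gene rpn-11 was the most abundant of the other regulatory subunits, at 304 ± 29.5 CPM per kb, and pbs-1, one of the catalytic genes, led the beta ring at 258 ± 16.3 CPM per kb. The other catalytic genes were lower, with 144 ± 6.70 CPM per kb for pbs-5 and 103 ± 8.02 CPM per kb for pbs-2.

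The least abundant members in all 6 groups were the paralogs rpn-6.1 and rpn-6.2, which encode alternative versions of a scaffold subunit of the lid. In RPOA-2 ethanol gonads rpn-6.1 stood at 49.0 ± 1.88 and rpn-6.2 at 10.1 ± 3.18 CPM per kb. Without rpn-6.2, the remaining 32 members spanned an 8.53-fold range in these libraries, from rpn-6.1 to rpt-2. Both paralogs lie on chromosome III, on the minus strand of WBcel235 (rpn-6.1, WBGene00004462, 6959110 to 6962001; rpn-6.2, WBGene00010309, 8999817 to 9001999). Counts that divide multiply mapped reads were 1.03 times the unique counts for rpn-6.1 and 1.01 times for rpn-6.2, so few of their reads are shared with other loci.

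**Figure D1:**
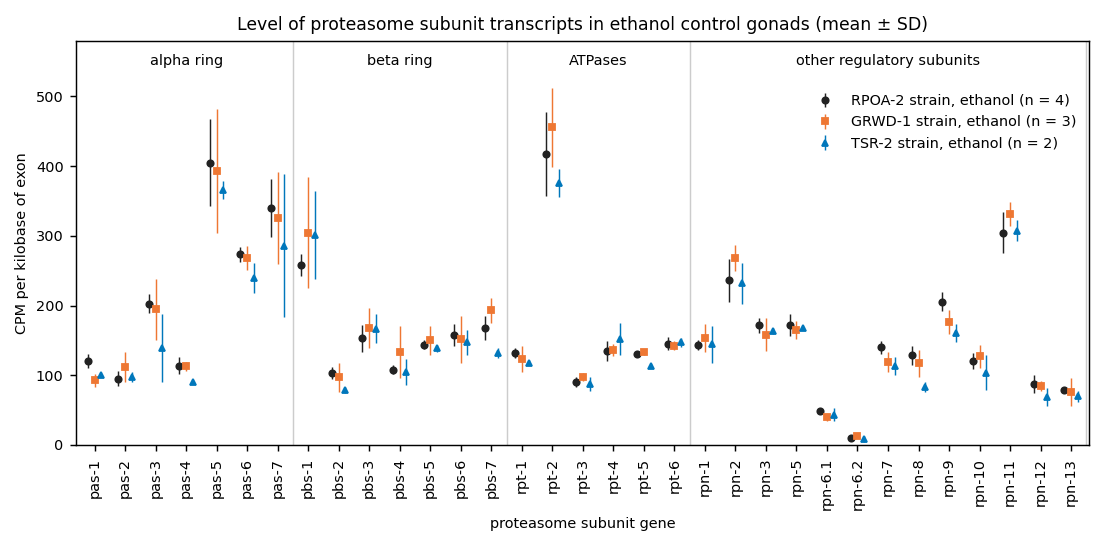
Mean level of each of the 33 members in ethanol libraries, in CPM per kilobase of merged exons, with SD as bars and 1 symbol per strain (n = 4, 3 and 2 libraries). Members span from rpn-6.2 near 10.1 CPM per kb to rpt-2 at 418 CPM per kb in the RPOA-2 strain, and the same genes are the lowest and the highest in the other strains.

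The comparison of auxin with ethanol within a strain asks whether proteasome genes respond when ribosome production is cut. At an adjusted p under 0.05 in edgeR's quasi-likelihood test, 0 of 33 members were called in the RPOA-2 strain, against 3.78% of all 7881 genes tested. In the GRWD-1 strain 0 of 33 were called, against 2.69% of 6948 genes, and in the TSR-2 strain 0 of 33, against 2.55% of 6396 genes. At an unadjusted p under 0.05 there were 4 members in the RPOA-2 strain, 5 in the GRWD-1 strain and 2 in the TSR-2 strain, against 19.2, 17.8 and 16.5% of all genes tested. DESeq2 called rpn-2 higher in the RPOA-2 strain (log2 change 0.31, adjusted p 0.0419), pbs-5 lower in the GRWD-1 strain (-0.61, adjusted p 0.0151) and 0 members in the TSR-2 strain, against 9.09, 7.75 and 0.988% of all genes to which it gave an adjusted p. It gave one to 33, 33 and 32 members.

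The intervals, from the fits without a replicate block, show how large a change the data leave room for, relative to the other protein-coding counts. All log2 changes and CPM here are on that relative scale. Of all fractional counts, protein-coding genes took 7.52 to 7.95% in RPOA-2 ethanol and 17.8 to 20.2% in RPOA-2 auxin libraries, replicates 1 to 3. The same shares were 8.43 to 11.1% and 19.3 to 30.4% for GRWD-1, and 8.58 to 13.3% and 12 to 15.9% for TSR-2. Changes relative to all counts were not tested. In the RPOA-2 strain the 95% interval of the change lay inside 1.5-fold in either direction for 31 of 33 members, all but rpn-2 and rpn-6.2, against 35.7% of all genes tested. Members were also measured more precisely than most genes: the median half-width of the interval was 0.24 on the log2 scale for members and 0.46 for all genes, so these shares do not compare the size of the changes alone. In the GRWD-1 strain 18 of 33 intervals lay inside 1.5-fold, against 23% of all genes, and 32 of 33 lay inside 2-fold, all but that of rpn-6.2. In the TSR-2 strain the intervals were wider: 8 of 33 lay inside 1.5-fold and 28 of 33 inside 2-fold, against 6.83% and 47.4% of all genes. Median half-widths of members and of all genes were 0.36 and 0.50 for GRWD-1 and 0.51 and 0.65 for TSR-2.

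Directions differed between strains. In the RPOA-2 strain 23 members had a positive and 10 a negative estimate, with a median log2 change of 0.03, beside -0.01 for all genes tested. The median member changed sign with the scaling there, to -0.005 with RLE size factors. In the GRWD-1 strain 7 were positive and 26 negative, with a median of -0.16, beside -0.0017 for all genes. In the TSR-2 strain 25 were positive and 8 negative, with a median of 0.16, beside -0.03 for all genes. Without TSR-2 auxin replicate 3 the split was 29 to 4 and the median 0.17. Of the 33 members, 7 had positive estimates in all 3 strains (pas-4, pbs-6, rpn-2, rpn-5, rpn-6.2, rpn-7 and rpn-11) and 2 had negative ones in all 3 (pbs-4 and rpn-1). Without TSR-2 auxin replicate 3 the TSR-2 estimate of rpn-1 turned positive, at 0.13, while that of pbs-4 was -0.07.

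**Figure D2:**
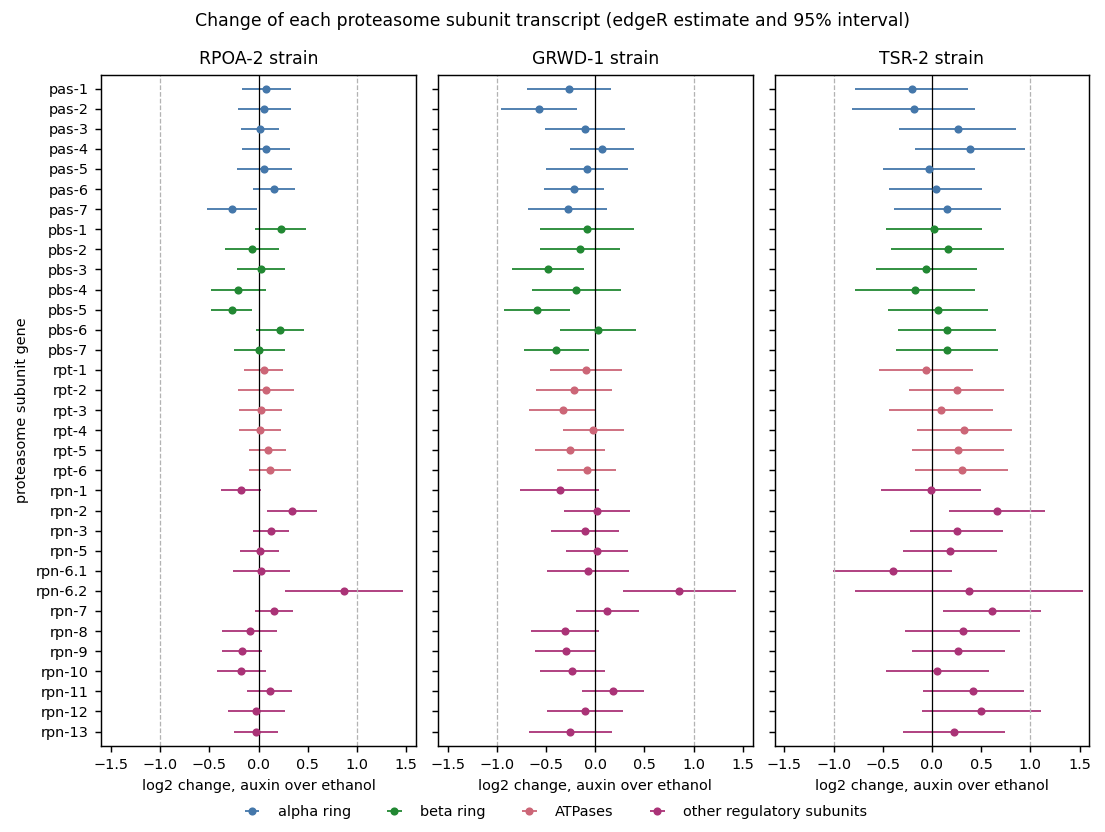
Log2 change of each member with auxin over ethanol in each strain, from fits without a replicate block. Points are edgeR estimates, lines 95% intervals, colours subcomplexes and dashed lines a 2-fold change. Most RPOA-2 intervals are short and cross 0, the GRWD-1 points sit mostly left of 0 and the TSR-2 points mostly right of it, and the estimates of rpn-6.2 are 0.87, 0.86 and 0.38.

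Among the catalytic beta subunits, pbs-5 had the lowest mean estimate of its ring. This gene (WBGene00003951, WBcel235 chromosome I, 14719167 to 14720477, minus strand) encodes the subunit with chymotrypsin-like activity. In the RPOA-2 strain it had 157, 155, 155 and 141.6 CPM in ethanol replicates 1 to 4 and 136, 124, 114 and 131 CPM in auxin replicates 1 to 4. Every auxin library lay below every ethanol library, which held for this member alone, against 4.53% of all genes tested, while 0 members lay entirely above, against 8.40%. The log2 change was -0.27 ± 0.0938 (SE; edgeR, unadjusted p 0.0147, adjusted p 0.140).

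For GRWD-1, pbs-5 had 138, 157 and 182 CPM with ethanol and 112, 100 and 104 CPM with auxin. The groups again did not overlap, and auxin values were all low. The log2 change was -0.59 ± 0.156 (edgeR, unadjusted p 0.0025, adjusted p 0.0659). Blocked by replicate number it passed, at -0.59 ± 0.130 (adjusted p 0.0110). In the TSR-2 strain the values were 143 and 150.1 CPM with ethanol and 159, 131 and 234 CPM with auxin. There the groups overlapped, and the highest value came from the shallow auxin replicate 3, so that the log2 change of 0.06 ± 0.247 (adjusted p 0.943) became 0.01 ± 0.206 without that library.

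The other catalytic genes gave smaller estimates. For pbs-1, which encodes the subunit with caspase-like activity, log2 changes were 0.23 ± 0.118, -0.08 ± 0.219 and 0.02 ± 0.237 (adjusted p 0.339, 0.889 and 0.982). Its RPOA-2 libraries read 217, 197, 228 and 207 CPM with ethanol and 289, 254, 253 and 195 CPM with auxin. Auxin replicate 4 lay below all the ethanol libraries and the other three above them. GRWD-1 libraries read 180.5, 262 and 309 CPM with ethanol and 180.3, 296 and 236 CPM with auxin, and TSR-2 libraries read 284 and 211 CPM with ethanol and 224, 269.5 and 276 CPM with auxin. In both strains the groups overlapped, and without auxin replicate 3 the TSR-2 log2 change was 0.03 ± 0.230.

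For pbs-2, which encodes the subunit with trypsin-like activity, log2 changes were -0.07 ± 0.123, -0.16 ± 0.186 and 0.16 ± 0.280 (adjusted p 0.834, 0.716 and 0.839). RPOA-2 libraries read 94.5, 109, 112 and 99.7 CPM with ethanol and 83.5, 94.8, 116 and 103 CPM with auxin. GRWD-1 libraries read 82.0, 89.5 and 121 CPM with ethanol and 77.4, 100.4 and 84.3 CPM with auxin. In both the groups overlapped widely. TSR-2 libraries read 82.6 and 76.2 CPM with ethanol and 83.0, 85.0 and 149 CPM with auxin, and there the lowest auxin value stood just above the higher ethanol value. Without auxin replicate 3, which read the highest, the log2 change was 0.11 ± 0.219.

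When same-numbered libraries were paired as a replicate block, the GRWD-1 strain gave 1 higher and 5 lower members, against 7.18 and 6.85% of all genes tested in the same fit. The lower ones were the beta subunit genes pbs-3, pbs-5 and pbs-7, the alpha subunit gene pas-2 and rpn-1, a base subunit that binds ubiquitin and the ubiquitin-like domains of shuttle proteins. Their log2 changes in that blocked fit were -0.47 (pbs-3, adjusted p 0.0281), -0.59 (pbs-5), -0.40 (pbs-7, adjusted p 0.0325), -0.55 (pas-2, adjusted p 0.0250) and -0.37 (rpn-1, adjusted p 0.0246). The GRWD-1 libraries of rpn-1 read 436, 558 and 470.0 CPM with ethanol and 326, 482 and 332.1 CPM with auxin. Groups overlapped through replicate 2, which was the highest of both groups, while auxin was lower in 3 of 3 same-numbered pairs. The higher one was rpn-6.2, at 0.86 ± 0.253 (adjusted p 0.0387). For RPOA-2 the block called 0 of 33 members, against 3.40% of all genes.

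The alpha ring is represented by pas-2 and pas-4, the members with the lowest and the highest mean estimate of that ring. In the GRWD-1 strain pas-2 (WBGene00003923, chromosome V, 10770368 to 10771351, plus strand) had 85.9, 81.3 and 114.7 CPM with ethanol and 60.1, 62.4 and 67.4 CPM with auxin. All auxin libraries lay below all ethanol libraries, with a log2 change of -0.57 ± 0.177 (adjusted p 0.111 without the block). In the RPOA-2 strain pas-2 had 71.5, 80.2, 75.3 and 92.4 CPM with ethanol and 84.5, 76.9, 92.7 and 77.9 CPM with auxin. These groups overlapped, and the log2 change was 0.06 ± 0.122 (adjusted p 0.846). In TSR-2 gonads, with 77.5 and 86.2 CPM on ethanol and 95.7, 56.7 and 21.3 CPM on auxin, it was -0.19 ± 0.304 (adjusted p 0.825). The last value is 1 count in the shallow auxin replicate 3, and without that library the log2 change was -0.09 ± 0.274 (adjusted p 0.909).

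For pas-4 the estimates were 0.07 ± 0.110, 0.07 ± 0.148 and 0.38 ± 0.271 (adjusted p 0.782, 0.852 and 0.520). It read 98.0, 93.1, 116 and 94.4 CPM with ethanol and 98.7, 111, 112 and 101 CPM with auxin in RPOA-2 gonads, and 101, 92.8 and 104 CPM against 107, 97.0 and 109 CPM in GRWD-1 gonads. These groups overlapped. In TSR-2 gonads it read 79.5 and 80.5 CPM with ethanol and 124, 85.8 and 106 CPM with auxin, without overlap (0.41 ± 0.239 without auxin replicate 3).

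In the beta ring pbs-6, a non-catalytic subunit gene, had the highest mean estimate, with log2 changes of 0.21 ± 0.111, 0.03 ± 0.176 and 0.15 ± 0.243 (adjusted p 0.334, 0.959 and 0.815). RPOA-2 libraries read 139, 134, 157 and 124 CPM with ethanol and 182, 146, 167 and 148 CPM with auxin. GRWD-1 libraries read 108, 165 and 126 CPM against 124, 137 and 146 CPM, and TSR-2 libraries 141 and 118 CPM against 127, 155 and 170.2 CPM. The groups overlapped in each strain, and the TSR-2 log2 change was 0.16 ± 0.219 without auxin replicate 3. Of the 7 beta subunit genes 6 had a negative estimate in the GRWD-1 strain, with a median of -0.19, whereas 4 were positive in the RPOA-2 strain and 5 in the TSR-2 strain. Auxin libraries lay entirely below ethanol libraries for 8 members in the GRWD-1 strain, against 11.3% of all genes tested: pas-2, pbs-3, pbs-5, pbs-7, rpt-3, rpt-5, rpn-8 and rpn-9. For pbs-3 the values were 122.6, 169 and 134 CPM with ethanol and 90.1, 105 and 111 CPM with auxin, and for pbs-7 they were 164, 158 and 187 CPM with ethanol and 126, 117 and 144 CPM with auxin.

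The 6 ATPase genes gave no call. All 6 estimates were positive in the RPOA-2 strain, between 0.02 and 0.11 on the log2 scale, and all 6 were negative in the GRWD-1 strain, between -0.33 and -0.02. In the TSR-2 strain 5 were positive, with a range of -0.06 to 0.33. The lowest mean estimate was that of rpt-3, whose GRWD-1 libraries had 122, 135 and 137 CPM with ethanol and 101, 119 and 93.6 CPM with auxin. They did not overlap (log2 change -0.33 ± 0.155, adjusted p 0.290, or 0.102 blocked by replicate). Its RPOA-2 libraries, with 136, 114, 122 and 118 CPM on ethanol and 134, 117, 128.0 and 120.0 CPM on auxin, overlapped, as did its TSR-2 libraries, with 109 and 127.7 CPM on ethanol and 106, 152 and 85.1 CPM on auxin. The TSR-2 log2 change of rpt-3 was 0.09 ± 0.257, and 0.17 ± 0.241 without auxin replicate 3. The highest was that of rpt-6, at 0.11 ± 0.0957, -0.09 ± 0.136 and 0.30 ± 0.229 in the 3 strains (adjusted p 0.575, 0.792 and 0.565). Its TSR-2 libraries read 201 and 213 CPM with ethanol and 264, 239 and 276 CPM with auxin, with the auxin libraries all higher (0.31 ± 0.1995 without auxin replicate 3). RPOA-2 libraries read 213, 187, 217 and 201 CPM against 224, 201, 213 and 249 CPM, and GRWD-1 libraries 189.7, 206 and 204 CPM against 180.1, 194 and 190.5 CPM, so that both overlapped. The abundant rpt-2 gave 0.08 ± 0.127, -0.22 ± 0.175 and 0.25 ± 0.235 (adjusted p 0.807, 0.573 and 0.663). RPOA-2 libraries read 570.2, 576, 568 and 748 CPM with ethanol and 648, 573, 610.4 and 764 CPM with auxin, where replicate 4 was the highest of both groups. GRWD-1 libraries read 727, 576 and 714 CPM against 562, 480.5 and 695 CPM, and TSR-2 libraries 533 and 575 CPM against 719, 659 and 553 CPM. All 3 strains overlapped, and the TSR-2 log2 change was 0.35 ± 0.222 without auxin replicate 3.

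Among the other regulatory subunits rpn-6.2 had the largest mean estimate over the 3 strains. Its estimate was the largest in the RPOA-2 and GRWD-1 strains, but not in the TSR-2 strain, where rpn-2, rpn-7, rpn-12 and rpn-11 had larger ones. In RPOA-2 gonads it had 21.7, 9.94, 17.1 and 13.96 CPM with ethanol, from 63, 44, 58 and 21 counts, and 29.6, 31.5, 32.7 and 20.2 CPM with auxin, from 148, 259, 143 and 48 counts. Of the auxin libraries 3 lay above all the ethanol libraries and replicate 4 lay below the highest of them. The log2 change was 0.87 ± 0.273 (edgeR, unadjusted p 0.0086, adjusted p 0.108), and within replicates 1 to 3 it was 0.93 ± 0.3001 (adjusted p 0.1596).

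In GRWD-1 gonads rpn-6.2 had 14.5, 22.3 and 19.5 CPM with ethanol and 36.6, 34.1 and 31.6 CPM with auxin. All auxin libraries lay above all ethanol libraries, which held for this member alone, against 13.3% of all genes tested. The log2 change of 0.86 ± 0.263 had an adjusted p of 0.108 without the block. In TSR-2 gonads the values were 9.02 and 17.2 CPM with ethanol and 22.2 and 13.5 CPM in auxin replicates 1 and 2. Auxin replicate 3 had 0 counts of rpn-6.2, which at its depth allows up to 63.8 CPM. The log2 change was 0.38 ± 0.564 (adjusted p 0.804), and 0.48 ± 0.508 without that library (adjusted p 0.682).

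Its paralog rpn-6.1 gave log2 changes of 0.03 ± 0.131, -0.08 ± 0.192 and -0.40 ± 0.294 (adjusted p 0.942, 0.878 and 0.537). It had 83.2, 77.02, 83.2 and 79.1 CPM with ethanol and 66.9, 94.1, 76.2 and 91.8 CPM with auxin in the RPOA-2 strain. It had 70.5, 55.7 and 68.9 CPM against 53.0, 57.8 and 74.4 CPM in the GRWD-1 strain, and 82.0 and 61.0 CPM against 61.3, 49.4 and 42.5 CPM in the TSR-2 strain. The groups overlapped in all 3 strains, and the TSR-2 log2 change was -0.35 ± 0.255 without auxin replicate 3. Per kilobase, rpn-6.2 stood at 27.5, 13.6, 21.7 and 18.7% of rpn-6.1 in the RPOA-2 ethanol libraries and at 46.7, 35.4, 45.4 and 23.3% in the auxin libraries. In GRWD-1 gonads these shares were 21.7, 42.3 and 29.9% with ethanol and 73.1, 62.3 and 44.9% with auxin. They did not overlap in the GRWD-1 strain and overlapped through auxin replicate 4 in the RPOA-2 strain. In TSR-2 gonads the shares were 11.6 and 29.7% with ethanol and 38.3 and 28.9% in auxin replicates 1 and 2, which overlapped, and auxin replicate 3 had 0 counts of rpn-6.2 and 2 of rpn-6.1. The share was not tested as such.

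**Figure D3:**
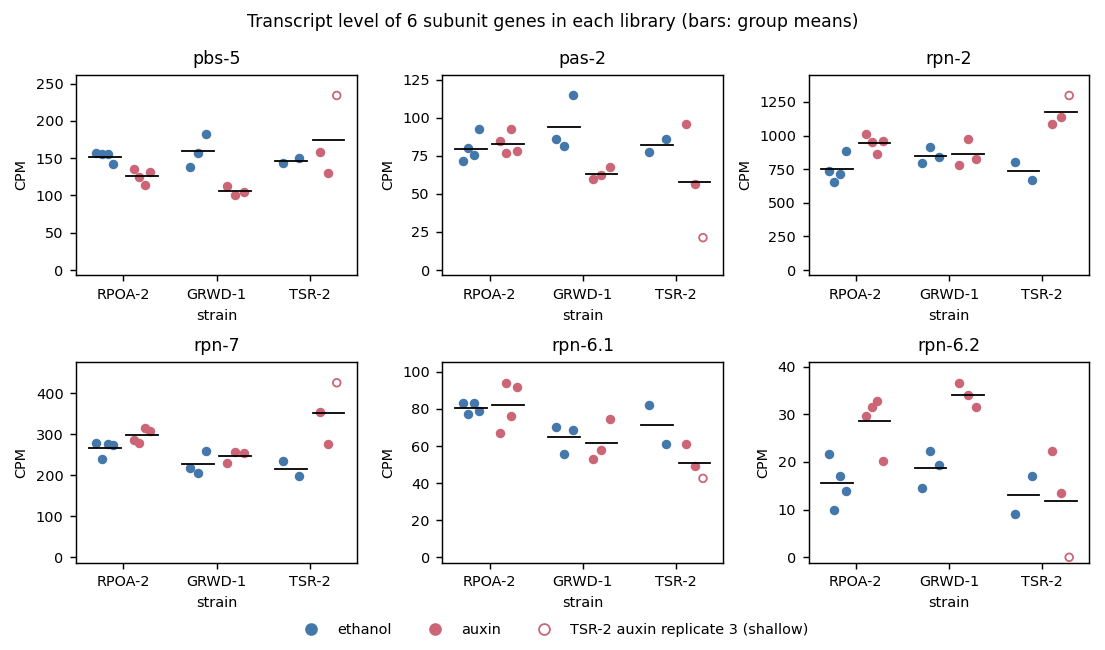
CPM of pbs-5, pas-2, rpn-2, rpn-7, rpn-6.1 and rpn-6.2 in each library, with blue points for ethanol, red points for auxin, horizontal bars for group means and an open circle for the shallow TSR-2 auxin replicate 3. The auxin points of pbs-5 lie below the ethanol points in the RPOA-2 and GRWD-1 strains, those of rpn-6.2 lie above them in the GRWD-1 strain, and those of rpn-2 and rpn-7 lie above them in the TSR-2 strain.

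The scaffold subunit gene rpn-2 (WBGene00004459, chromosome III, 6199184 to 6202594, plus strand) followed, with 735, 658, 711 and 888 CPM with ethanol and 1008, 953, 865 and 960.2 CPM with auxin in the RPOA-2 strain. The groups overlapped only through ethanol replicate 4 and auxin replicate 3, and the log2 change was 0.34 ± 0.115 (edgeR, adjusted p 0.132). In TSR-2 gonads its values were 800.4 and 669 CPM with ethanol and 1085, 1138 and 1298 CPM with auxin. All auxin libraries were high, and the log2 change was 0.66 ± 0.238 (adjusted p 0.140), or 0.63 ± 0.238 without auxin replicate 3 (adjusted p 0.227). In GRWD-1 gonads the groups overlapped, at 797, 913 and 842 CPM with ethanol and 778, 976 and 823 CPM with auxin, with a log2 change of 0.01 ± 0.154 (adjusted p 0.9751).

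In TSR-2 gonads 9 members had all auxin libraries above both ethanol libraries, against 12.7% of all genes tested: pas-4, pbs-2, rpt-6, rpn-2, rpn-3, rpn-5, rpn-7, rpn-9 and rpn-13. The lid subunit gene rpn-7 had 234 and 199 CPM with ethanol and 355, 276 and 426 CPM with auxin, a log2 change of 0.61 ± 0.242 (adjusted p 0.184), or 0.57 ± 0.2195 without auxin replicate 3 (adjusted p 0.232). Its exons overlap nemt-1 on the other strand over 394 bases. As the strand setting of the counting is not given in the sources used here, reads of the pair may not be separated. In the other strains the rpn-7 groups overlapped, with 278, 240.5, 277 and 273 CPM against 287, 278, 316 and 307 CPM for RPOA-2 and 218, 206 and 258 CPM against 230.4, 258 and 255 CPM for GRWD-1. The member with all auxin libraries lower was pas-1, against 19.9% of all genes tested, with 94.1 and 95.8 CPM with ethanol and 90.4, 83.4 and 21.3 CPM with auxin. The last of these values is 1 count, and without that library the log2 change of pas-1 was -0.10 ± 0.213 (adjusted p 0.862).

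Of the subunits that handle ubiquitin, rpn-1 was called lower in the GRWD-1 strain with the replicate block, as given above, and rpn-10, rpn-11 and rpn-13 were not called with or without it. For rpn-11, which encodes the deubiquitinase, log2 changes were 0.11 ± 0.105, 0.18 ± 0.145 and 0.42 ± 0.251 (adjusted p 0.622, 0.575 and 0.417). Its TSR-2 libraries had 393 and 366 CPM with ethanol and 611.3, 508 and 298 CPM with auxin, and without the third of these the log2 change was 0.59 ± 0.222 (adjusted p 0.226). RPOA-2 libraries of rpn-11 read 371, 333, 378 and 421.5 CPM against 395, 391, 370.4 and 467 CPM, and GRWD-1 libraries 388, 408 and 431 CPM against 414, 488 and 485 CPM, with overlap in both.

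The ubiquitin receptor genes gave -0.17 ± 0.0922, -0.36 ± 0.185 and -0.01 ± 0.246 for rpn-1 (adjusted p 0.345, 0.333 and 0.987). Blocked by replicate number, the GRWD-1 value was -0.37 ± 0.0985 (adjusted p 0.0246). In RPOA-2 gonads rpn-1 read 432, 442, 466 and 477 CPM with ethanol and 444, 366, 379.6 and 420.3 CPM with auxin, where only auxin replicate 1 reached the ethanol range. In TSR-2 gonads it read 517 and 399 CPM with ethanol and 469.5, 510.5 and 298 CPM with auxin, and the groups overlapped. Without auxin replicate 3, the lowest of them, the log2 change was 0.13 ± 0.232 (adjusted p 0.823).

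For rpn-10, which also acts in germline sex determination in worms, log2 changes were -0.18 ± 0.112, -0.24 ± 0.152 and 0.06 ± 0.255 (adjusted p 0.445, 0.460 and 0.947). Its RPOA-2 libraries read 143, 152, 151 and 177 CPM against 129, 124, 136 and 162 CPM, and its GRWD-1 libraries 144, 161 and 186 CPM against 129, 141 and 148 CPM. Auxin values were the lower ones on average in both, and the groups overlapped. They also overlapped in the TSR-2 strain, with 111 and 156 CPM on ethanol and 161, 127 and 85.1 CPM on auxin, where the log2 change was 0.14 ± 0.238 without auxin replicate 3. For rpn-13, a further ubiquitin receptor gene, log2 changes were -0.02 ± 0.100, -0.25 ± 0.193 and 0.22 ± 0.251 (adjusted p 0.933, 0.543 and 0.727). Its GRWD-1 libraries read 84.0, 110.4 and 145 CPM with ethanol and 95.4, 99.9 and 89.5 CPM with auxin, so that the ethanol libraries spread more widely than the auxin ones. The RPOA-2 groups also overlapped, at 123.1, 117, 118 and 110.4 CPM with ethanol and 114, 120.4, 102 and 125 CPM with auxin. Its TSR-2 libraries read 113 and 95.8 CPM against 120.0, 119 and 149 CPM, without overlap (0.23 ± 0.211 without auxin replicate 3).

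Summed over all 33 members, transcript levels were 7259 ± 376 CPM with ethanol and 7554 ± 308 CPM with auxin in the RPOA-2 strain, a ratio of 1.04. In GRWD-1 gonads they were 7382 ± 516 and 6722 ± 364 CPM, a ratio of 0.911, and in both strains the groups overlapped. For TSR-2 the ethanol libraries summed to 6680.0 and 6674 CPM and the auxin libraries to 8236, 7669 and 7254 CPM. There the groups did not overlap, and the ratio of means was 1.16. The 13 other regulatory subunits had the largest ratio, 1.26, with 3218 and 2929 CPM with ethanol and 4039, 3896 and 3659 CPM with auxin. The separation was not particular to members. Germline markers of the TSR-2 strain summed to 4575 to 5692 CPM with ethanol and 6105 to 7210 CPM with auxin. Genes of the COP9 signalosome, a complex related to the lid, summed to 557 to 573.5 CPM and 651 to 808 CPM. Sums of the ubiquitin and proteasome partners, cullin ubiquitin ligases and oocyte markers listed below overlapped there. Such sums were not tested, since members are not replicates.

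**Figure D4:**
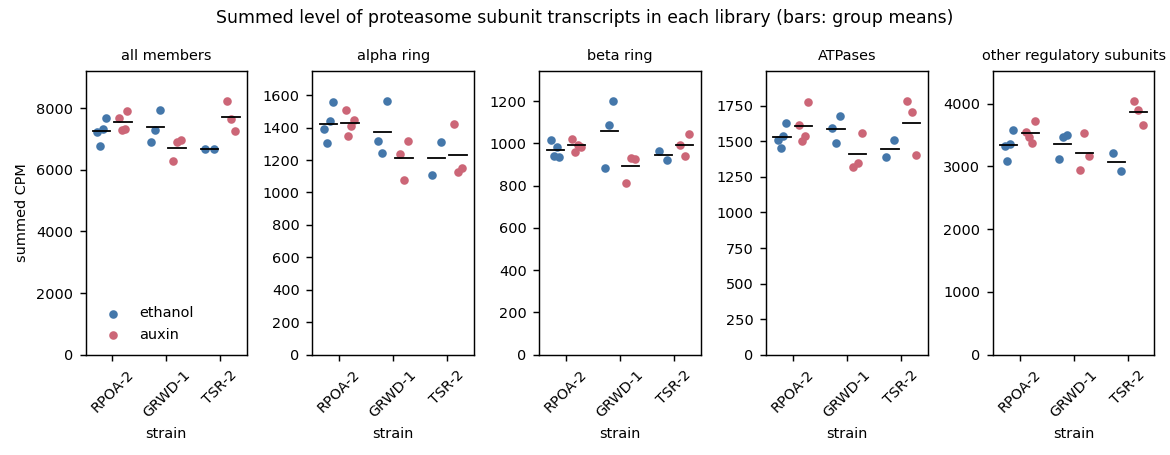
Summed CPM of all members and of each subcomplex in each library, with blue points for ethanol, red points for auxin and horizontal bars for group means. Auxin and ethanol points overlap in the RPOA-2 and GRWD-1 strains in all 5 panels, while in the TSR-2 strain they separate for all members and for the other regulatory subunits.

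Contrasts between strains tested whether the change with auxin itself differed. For RPOA-2 minus GRWD-1, 0 of 33 members passed, against 0.0105% of 9495 genes. The median difference of members was 0.16 on the log2 scale, beside 0.0054 for all genes, and 27 were positive. The lowest unadjusted p was that of pas-2, with a difference of 0.62 ± 0.234 (edgeR, unadjusted p 0.0170, adjusted p 1.00). For GRWD-1 minus TSR-2, 0 of 33 passed, against 0.00% of 8757 genes. There 31 members had a negative difference, with a median of -0.33 beside 0.13 for all genes, and pbs-5 gave -0.65 ± 0.285 (unadjusted p 0.0357, adjusted p 0.979), or -0.52 without TSR-2 auxin replicate 3. For RPOA-2 minus TSR-2, 0 of 33 passed, against 0.0271% of 11079 genes, with a median of -0.17 beside 0.20 for all genes. At an unadjusted p under 0.05 there were 2, 1 and 0 members in these contrasts, against 4.61, 4.39 and 6.55% of all genes, and DESeq2 called 0 in each, against 0.842, 4.81 and 0.0362% of the genes to which it gave an adjusted p. These included 32, 2 and 33 members, so that DESeq2 made no call on most members in the contrast of GRWD-1 with TSR-2. The contrasts share libraries, and RPOA-2 replicates 1 to 3 carry library numbers apart from all others.

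Genes around the proteasome were described from lists of known partners. All 24 listed ubiquitin and proteasome partners were tested, of which 3 rose with RPOA-2, 1 with GRWD-1 and 0 with TSR-2 depletion, against 2.56, 1.21 and 0.532% of all genes. No partner fell in any strain, against 1.22, 1.48 and 2.02% of all genes. In RPOA-2 gonads the ubiquitin-activating enzyme gene uba-1 rose, with 593 ± 49.3 CPM on ethanol and 820.0 ± 64.0 CPM on auxin (log2 change 0.47 ± 0.103, adjusted p 0.0333). In the same strain ecps-1, the counterpart of the proteasome adaptor Ecm29, rose from 308 ± 48.4 to 464 ± 68.7 CPM (0.60 ± 0.137, adjusted p 0.0387). The peptide N-glycanase gene png-1, whose product edits SKN-1A, rose from 47.6 ± 10.8 to 75.0 ± 4.204 CPM (0.67 ± 0.158, adjusted p 0.0421), and skn-1 itself gave 0.21 ± 0.101 (adjusted p 0.287).

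In GRWD-1 gonads ubh-4, a deubiquitinase that docks on the proteasome, rose, with 84.5 ± 11.1 CPM on ethanol and 141 ± 6.24 CPM on auxin (log2 change 0.74 ± 0.156, adjusted p 0.0314). Its log2 change was 0.26 ± 0.120 in the RPOA-2 strain (adjusted p 0.262) and 0.56 ± 0.264 with TSR-2 depletion (adjusted p 0.278). None of these 4 genes was called in a second strain, and the differences between strains were not tested for them. Of the 6 tested genes of the COP9 signalosome, whose subunits are related to those of the lid, 0 were called in each strain, with medians of 0.23, 0.22 and 0.29. Of 23 tested genes of cullin ubiquitin ligases 0 were called in each strain, with medians of -0.02, 0.04 and 0.03.

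Markers of other cells differed between the same libraries, and their part in the values of the members was not tested. In bulk samples fewer cells of a type and less RNA per cell cannot be told apart. Gonadal sheath and spermatheca markers summed to 1511 to 2603 CPM with ethanol and 1017 to 1432 CPM with auxin in the RPOA-2 strain. They went from 2065 to 3046 down to 833 to 1202 CPM in the GRWD-1 strain and from 2189 to 2776 down to 830 to 1355 CPM in the TSR-2 strain. Nearly all of each sum was fln-1, which encodes filamin and was the called marker in all 3 strains, with log2 changes of -0.83, -1.34 and -1.23. In GRWD-1 gonads it stood at 2459 ± 493 CPM with ethanol and 973 ± 201 CPM with auxin. The sums therefore follow this gene: of the markers tested, 4 of 5 had a negative estimate in the RPOA-2 strain, 2 of 4 in the GRWD-1 strain and 3 of 3 in the TSR-2 strain. Intestine markers ran over a wide range, 1648 to 38500 CPM in RPOA-2 ethanol libraries and 658 to 21570 CPM in RPOA-2 auxin libraries, 774 to 4552 and 445 to 1788 CPM in GRWD-1 libraries, and 1069 to 1736 and 213 to 801 CPM in TSR-2 libraries. Of the intestine markers vit-5 was called lower with TSR-2 depletion. The germline marker syp-1 was called higher with RPOA-2 and with TSR-2 depletion, and 0 of 6 oocyte markers were called. Among these oocyte markers 4, 3 and 1 had a positive estimate in the 3 strains, with medians of 0.12, 0.02 and -0.30. Of 8 germline markers 6, 4 and 7 had a positive estimate in the 3 strains, with medians of 0.16, 0.0021 and 0.40.

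Members are spread over the autosomes, with 10 on chromosome I, 7 on II, 8 on III, 3 on IV and 5 on V. The X chromosome holds 0 of them and 13.7% of the protein-coding genes in the tables. A coding gene on the same strand lies within 500 bases of 16 members, which matters in worms because neighbouring genes can be transcribed as 1 operon. Neighbours differed in whether their values were like the member's, and those named here were chosen after their values were seen. In GRWD-1 gonads ulp-2, 22 bases upstream of pbs-3, gave a log2 change of -0.66 beside -0.48 for pbs-3, and D1054.3, 99 bases downstream of pas-2, gave -0.48 beside -0.57 for pas-2 (adjusted p of the neighbours 0.0703 and 0.1597, without the block). In contrast, mrpl-9, a mitochondrial ribosomal protein gene 118 bases upstream of rpn-10, rose in all 3 strains (log2 change 0.82, 1.27 and 1.54; adjusted p 0.0207, 0.0047 and 0.0058), while rpn-10 gave the estimates above. Next to pbs-5, K05C4.2 lies 110 bases upstream and gave -0.41, -0.39 and 0.20 (adjusted p 0.138, 0.345 and 0.793). Exons of rpt-4 overlap those of rpoa-49, an RNA polymerase I subunit gene on the other strand, over 103 bases, and its fractional count was 1.20 times the unique one. For the other 32 members that ratio was within 5% of 1.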

How the data were processed

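RNA-seq count tables of dissected gonads were used. The first table holds counts as the authors deposited them, whole-number reads per protein-coding gene without normalization, for 14 libraries. The second holds expected counts, deposited by the authors as fractional counts in which a multiply mapped read is shared among its places, for 46930 features and 17 libraries. Per the submitters' processing notes, Trim Galore 0.6.10, HISAT2 2.2.1, Picard and featureCounts 2.0.6 were used with the build WBcel235, with no role or order given, and the strand setting is not given in the sources used here. Counts are amplified reads without molecular identifiers, so floors of 3 counts cover counting error only.

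Symbols, exons and coordinates (counted from 1) came from Ensembl release 115. TSR-2 libraries are in the second table only, so its protein-coding genes were rounded to whole numbers for that strain and for contrasts with it, which hold replicates 1 to 3 of RPOA-2. All library columns were used (0 left out). The members and lists were chosen with earlier results of these data known.

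All genes of a table entered 1 fit per strain in R 4.3.3 (edgeR 4.0.16, genes kept by filterByExpr, TMM scaling, quasi-likelihood F test, no covariate). P-values were adjusted by Benjamini-Hochberg across every gene in the fit, with 0.05 as threshold. Contrasts between strains came from a model with a coefficient for each group. Standard errors divide the size of the log2 change by the square root of F. The procedure was tested on simulated counts. Values per kilobase divide CPM by merged exon length.

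Members given in detail were those called in any comparison, the highest and lowest mean log2 change in each subcomplex, the catalytic beta subunits, the deubiquitinase, the ubiquitin receptors, the rpn-6 paralogs and the highest and lowest level per length. Members whose libraries did not overlap, and rpn-2, rpn-7, pbs-3, pbs-7 and pas-1 among them, were added after their values were seen, as were the neighbours and skn-1.

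Same-numbered ethanol and auxin libraries were taken as pairs where their deviations from the group means correlated above 0.1 across genes in every pair. This held for RPOA-2 (0.168, 0.336, 0.190 and 0.229) and GRWD-1 (0.462, 0.418 and 0.219). Unlike-numbered RPOA-2 libraries correlated as highly in places, at 0.29 (ethanol replicate 1 with auxin replicate 3) and 0.225 (ethanol replicate 2 with auxin replicate 4). The rule therefore does not show that RPOA-2 libraries are paired by number. Among GRWD-1 libraries the highest unlike-numbered value was 0.154. Alternatives were RLE size factors, total counts, DESeq2 1.42.0, other low-count filters, the replicate block, 1 fit over all groups, fractional counts, subsets of libraries and each library left out in turn. Sequences were not analysed here.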

Additional observations from a re-analysis of the deposited data

Results flagged for a closer look

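A value was picked out where 1 library of a group of 4 stood apart from the rest of its group by more than a fixed share of the range (Dixon's test at 95%), which chance does in about 1 of 20 groups. Over 76 groups of 4 tested, 6 were picked out, all in the RPOA-2 strain, the strain with 4 libraries a group. In ethanol libraries, pbs-3 read 154.7 CPM in replicate 1 against 119.5 to 122.9 in the others. For pbs-5, ethanol replicate 4 read 141.6 CPM against 154.9 to 157.1, and it remained above all auxin libraries. For rpn-7, ethanol replicate 2 read 240.5 CPM against 273.2 to 277.7, and for rpt-2, ethanol replicate 4 read 747.9 CPM against 567.9 to 576.4. In auxin libraries, pbs-7 read 177.7 CPM in replicate 4 against 135.5 to 142.1, and rpn-8 read 117.9 CPM in replicate 1 against 158.4 to 164.2.

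The lid subunit gene rpn-9 was picked out because every GRWD-1 auxin library lay below its ethanol libraries and every TSR-2 auxin library above them. The difference of the changes, GRWD-1 minus TSR-2, was -0.5387 on the log2 scale (unadjusted p 0.0553, adjusted p 0.979, edgeR) and so did not pass. Exons of rpn-9 overlap a non-coding gene on the other strand over 140 bases.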

How the results depend on the processing

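A total of 1791 values were compared between the reported analysis and its alternatives, with direction read only for values past the threshold. Of these, 1766 kept their call, count or size, 20 gained a call or a higher count of calls, and 5 medians moved. The 20 are not separate calls: a gained call enters as the member's own value and again within the count of called members. As the reported fits called 0 of 33 members, no call could be lost. In the RPOA-2 strain 1 member was higher with total counts and 1 with DESeq2, rpn-2 both times (adjusted p 0.0424 and 0.0419). Its median member moved from 0.03 to -0.02087 with a mean of at least 50 counts, and from -0.03334 (without auxin replicate 4) to 0.05892 (without auxin replicate 3) as single libraries were left out, so that its sign changed with single libraries. In the GRWD-1 strain 1 member, pbs-5, was lower with DESeq2, with a mean of at least 50 counts and with all groups in 1 fit, and the replicate block gave 1 higher and 5 lower. Its median ran from -0.1976 (without ethanol replicate 1) to -0.04973 (without ethanol replicate 3). In the TSR-2 strain rpn-2 was the 1 member called higher with adjacent library numbers as a block, without auxin replicate 1 (adjusted p 0.0144). The median difference of RPOA-2 minus GRWD-1 ran from 0.02707 (without GRWD-1 ethanol replicate 3) to 0.2089 (without GRWD-1 auxin replicate 3). Leaving out any 1 library from the unblocked fit called 0 members in every strain and contrast. The cause of these shifts was not tested.

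TSR-2 libraries of the same number did not deviate together (correlations -0.184 and -0.0487), so the block is given only here: 0 members were called with it, and the median was 0.13. The block changed no other call. Depth limits the TSR-2 strain most, through auxin replicate 3, and rpn-6.2 throughout. With RLE size factors the median of all genes in the TSR-2 strain shifted to -0.10, and the median member to 0.10.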
